A study of Mus musculus with 14 samples.

Results

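The NANOG landscape described here is the complete list of 14815 peaks found by NANOG chromatin immunoprecipitation sequencing (ChIP-seq) in mouse embryonic stem (ES) clone A6. No peak was left out, and the peaks made up 60.7% of the 24416 peaks in the 8 deposited lists read here. The study asked where SIM2, a transcription factor of the bHLH-PAS family, binds in mouse ES cells and which other factors sit at those sites. Its 4 anti-Flag ChIPs came from the parental EB3 line and from clones A6, B8 and C4, which express Sim2, and the OCT4, NANOG, MED1 and MED12 lists analysed here came from clone A6. Clone A6 carried Flag-tagged Sim2 in an inducible ROSA-TET system and was cultured for 26 h in tetracycline-free medium, with LIF, before the anti-Nanog antibody (D2A3) was used. The NANOG and OCT4 ChIPs shared 1 input library, and MED1 and MED12 shared another. A single NANOG library from 1 clone was analysed, so no value below has a replicate error, and each 95% Wilson interval covers counting error only. All A6 lists come from cells in which Sim2 was induced, and a NANOG landscape without Sim2 was not analysed here.

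NANOG is a homeodomain transcription factor of the early embryo that helps ES cells to keep renewing themselves. It shares many of its binding sites with OCT4, the product of Pou5f1, and with SOX2, which bind an octamer and a SOX element that often lie side by side. MED1 and MED12 are subunits of Mediator, the complex that connects factors bound at enhancers with RNA polymerase II at promoters. Much of the NANOG binding known in ES cells lies in enhancers far from genes.

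Peak sequences were read from mm9, the build of the peak lists, and 7 peaks with contrasting patterns are shown. Capitals mark exact matches, on either strand, to any of 15 short patterns, which include the octamer ATGCAAAT, the octamer-SOX composite GCATNACAA, the ESRRB element TCAAGGTCA, a KLF element GGGTGTGGC and the ZIC element CAGCAGG. A match describes the letters and not a bound site. The 7 were picked among peaks with a match. None of the 15 patterns was in the second strongest peak of all, in that near Prickle1 or in the strongest of Nanog, Sox2 and Klf4. Over all peaks, 51.6% of windows of 200 bp held no pattern. Each sequence is the 167 bases of the plus strand from the listed start to the listed end. The first sequence, at chr3:121848399-121848565, belongs to the peak with the highest signal of all, in an intron of Abca4. It holds a run of 12 bases, atcaacatgaca, 3 times.

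Abca4 intron: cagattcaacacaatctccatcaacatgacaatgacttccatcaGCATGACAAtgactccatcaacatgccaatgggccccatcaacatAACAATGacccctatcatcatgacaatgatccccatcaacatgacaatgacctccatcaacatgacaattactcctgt

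Upstream of Myst4: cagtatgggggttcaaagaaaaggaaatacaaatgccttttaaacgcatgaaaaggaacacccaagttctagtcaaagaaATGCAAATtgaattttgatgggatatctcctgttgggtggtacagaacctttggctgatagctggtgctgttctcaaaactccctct

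The Myst4 peak, at chr14:22305492-22305658, was the third by signal and holds an octamer. Pou5f1 itself had an upstream peak at chr17:35640928-35641094 with a composite element, shown because the gene product is one of the factors that read it. Esrrb encodes a nuclear receptor of ES cells, and its strongest peak lay in an intron at chr12:87842660-87842826 and holds the ESRRB element on the minus strand. Zfp42 encodes the ES cell marker REX1, and its strongest peak at chr8:44406078-44406244 holds a KLF element.

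Upstream of Pou5f1: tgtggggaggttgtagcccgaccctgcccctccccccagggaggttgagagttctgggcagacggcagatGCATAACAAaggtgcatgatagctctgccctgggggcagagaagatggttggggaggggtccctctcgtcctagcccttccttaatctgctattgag

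Esrrb intron: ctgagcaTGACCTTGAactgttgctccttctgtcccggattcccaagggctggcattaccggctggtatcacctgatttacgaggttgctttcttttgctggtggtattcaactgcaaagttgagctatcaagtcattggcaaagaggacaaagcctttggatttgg

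Upstream of Zfp42: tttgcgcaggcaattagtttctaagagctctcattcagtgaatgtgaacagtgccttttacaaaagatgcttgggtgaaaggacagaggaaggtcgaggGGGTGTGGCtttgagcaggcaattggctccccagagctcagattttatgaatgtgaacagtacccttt

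The strongest promoter peak, at chr14:70751877-70752043 upstream of the zinc transporter gene Slc39a14, again holds an octamer. The promoter peak of Jarid2, which encodes an accessory subunit of Polycomb repressive complex PRC2, lay at chr13:44823918-44824084 and holds a ZIC element.

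Slc39a14 promoter: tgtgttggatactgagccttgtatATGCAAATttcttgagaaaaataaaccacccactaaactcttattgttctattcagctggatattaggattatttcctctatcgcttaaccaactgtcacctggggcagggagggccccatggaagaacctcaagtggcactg

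Jarid2 promoter: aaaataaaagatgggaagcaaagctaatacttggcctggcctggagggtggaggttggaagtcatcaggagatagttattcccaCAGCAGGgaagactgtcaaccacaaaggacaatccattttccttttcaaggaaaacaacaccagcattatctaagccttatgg

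NANOG peaks lay mostly away from promoters. Of the 14815 peak centres, 8663 (58.5%, interval 57.7 to 59.3) were intergenic, 5503 (37.1%, 36.4 to 37.9) were intronic, 433 (2.92%, 2.66 to 3.21) were in a promoter and 216 (1.46%, 1.28 to 1.66) were in an exon. A promoter was the window from 1000 bp upstream to 300 bp downstream of a transcription start site (TSS) of a protein-coding gene. The same classes held 61.0%, 35.1%, 1.56% and 2.30% of the sequenced genome. Promoters therefore carried 10.9 peaks per Mb, 1.88 times their share of the genome, against 6.13 in introns, 5.56 between genes and 3.67 in exons. The share in promoters depended on how a promoter was drawn and reached 8.38% with 2.5 kb to either side of a TSS.

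Peaks near a TSS sat upstream of it. In the 250 bp just upstream there were 143 peaks, and in the 250 bp just downstream there were 38. The same contrast held for 300 bp, with 166 peaks upstream and 40 downstream, and had gone at 1 to 5 kb, with 830 and 780. Over all distances 49.1% of peaks were upstream of their nearest TSS. The median distance was 33395 bp, the quartiles were 10599.5 and 105570 bp, 74.1% of peaks lay within 100 kb of a TSS and 811 peaks (5.47%) lay over 500 kb away. Within introns, those closest to the start of a transcript held more peaks than their length, with 1793 of 5462 assigned peaks (32.8%) in first introns that made up 26.7% of the intronic bases. The densities were 7.52 and 5.60 peaks per Mb in first and in later introns.

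**Figure D1:**
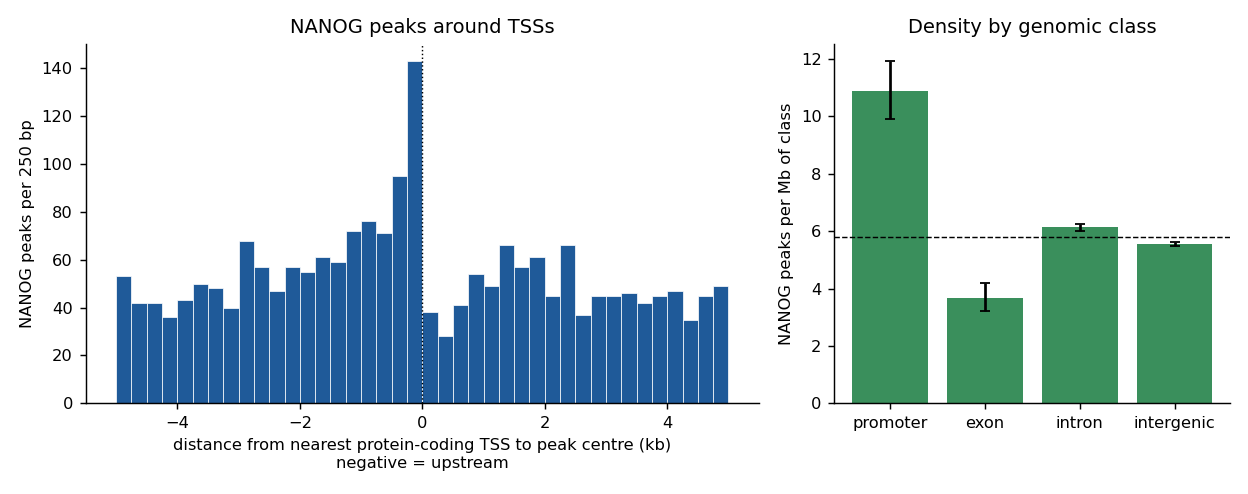
Left, NANOG peaks in bins of 250 bp by distance (kb) from the nearest protein-coding TSS. Right, NANOG peaks per Mb of each genomic class, with 95% Wilson intervals for counting error and a dashed line at 5.80 peaks per Mb over the whole genome. The bin just upstream of the TSS holds 143 peaks and the bin just downstream 38, and promoters carry 10.9 peaks per Mb.

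Most NANOG peaks were weak. The lists give a Normalized Tag Count, the ChIP tags of a peak scaled to a library of fixed size, and its median was 6.2, with quartiles of 4.6 and 9.3, a 99th percentile of 30.2 and a highest value of 64.3. Total Tags, the other tag count of the lists, had a median of 15, quartiles of 11 and 23 and a highest value of 165. Converted back to tags with its step of 0.774 per tag, the Normalized Tag Count was a median of 0.504 of Total Tags (quartiles 0.457 and 0.582), so the columns did not hold the same tags on different scales. The list ended sharply at 10 tags, where 2213 peaks lay, and 4981 peaks (33.6%) had 12 tags or fewer. Only 660 peaks (4.45%) had over 50 tags. The decile of 1481 peaks with the highest Normalized Tag Counts held 26.6% of the summed Normalized Tag Count. The findPeaks Score was within 1 of Total Tags for 86.4% of peaks, so it carried nearly the same information. The focus ratio, the fraction of tags on the proper side of the peak centre for their strand, had a median of 0.761 with quartiles of 0.696 and 0.82, and was almost unrelated to signal across peaks (Spearman 0.088 with the Normalized Tag Count, 14815 peaks of 1 library). Input tags stood at a floor of 2.2 for 13908 peaks (93.9%), so the ratio of ChIP to input, median 6.91, was for these peaks a rescaled tag count.

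Signal hardly differed among the classes. The median Normalized Tag Count was 5.4 in promoters, 5.8 in exons and 6.2 both in introns and between genes. Median Total Tags were 14, 14, 15 and 15 in the same order, and median focus ratios were 0.77, 0.75, 0.765 and 0.757. On the log2 scale, the promoter median was below the intergenic median by a difference of -0.20 for the Normalized Tag Count and of -0.10 for Total Tags, and the difference was 0 with promoters of 2.5 kb to either side. The quartiles overlapped almost wholly, from 11 to 21 tags in promoters and from 12 to 24 between genes. Of the 100 peaks with the highest Normalized Tag Count, 64 were intergenic, 35 intronic and 1 in a promoter, beside 58.5%, 37.1% and 2.92% over all peaks, and promoters held 2.90% of the highest decile. The highest promoter value, 34.8, compares with 60.4 between genes and 64.3 in introns.

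The strongest single peak lay in the Abca4 intron shown above, with a Normalized Tag Count of 64.3 and 165 tags. A peak 11727 bp downstream of the start of 4931440L10Rik followed with 60.4. The Myst4 peak had 58.1 and lay 13501 bp upstream of this histone acetyltransferase gene. An intronic peak of Tnfsf11, which encodes the cytokine RANKL, had 55. The next were near Prickle1 (54.2), a planar polarity gene, and Efr3a (52.7). OCT4 peaks lay within 100 bp of 9 of the 10 strongest peaks. The exception was a peak in an intron of Sfi1 with a value of 49.6, which also had 26 input tags, a ratio to input of 4.39 and neither a MED1 nor a MED12 peak. Input tags exceeded 5 at 20 peaks in all. The Tnfsf11 peak and the Slc39a14 promoter peak lie in chromosome 14 from 70 to 110 Mb. Peaks were denser there and input tags more often above the floor of 2.2, though both of these peaks stood at it. After Slc39a14, the strongest promoter peaks were those of Ntn1 (31.8), which encodes the guidance cue netrin 1, Jarid2 (30.2), 1700019D03Rik (29.4) and Utrn (25.6), which encodes utrophin, and OCT4 peaks lay at all 5.

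Stronger NANOG peaks more often had peaks of the other factors. OCT4 peaks lay within 100 bp of 2233 NANOG peaks (15.1%, interval 14.5 to 15.7), MED12 peaks of 752 (5.08%, 4.73 to 5.44) and MED1 peaks of 290 (1.96%, 1.75 to 2.19). These were 88.2% of the OCT4 list, 70.2% of the MED12 list and 38.1% of the MED1 list. Chromosome 14 from 70 to 110 Mb, described below, held 99 of the 762 MED1 peaks. Outside it were 283 of the 290 NANOG peaks with MED1. At 12253 NANOG peaks (82.7%) none of the 3 was listed, and at 141 all 3 were. From the lowest to the highest decile of NANOG Normalized Tag Count, the share with OCT4 went from 2.02% to 67.9%, with MED12 from 0.405% to 27.2% and with MED1 from 0.472% to 10.1%. The OCT4 list held 2532 peaks and shared its input with NANOG, and a factor with a short list can be missed at a weak site, so the low shares do not show absence. By class, OCT4 was at 13.4% of promoter peaks, 14.1% of intronic and 15.8% of intergenic ones, and MED12 at 6.70%, 4.03% and 5.66%. Mediator also varied with distance from a TSS: MED12 was at 7.83% of peaks 1 to 5 kb away and at 1.60% of those over 500 kb away, and MED1 at 2.98% and 0%, while OCT4 ranged only from 13.2% to 16.1% over all distances. For MED1 the 0% stands for 0 of 811 peaks, which allows a share of up to 0.370% when the limit is set at 3 counts.

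**Figure D2:**
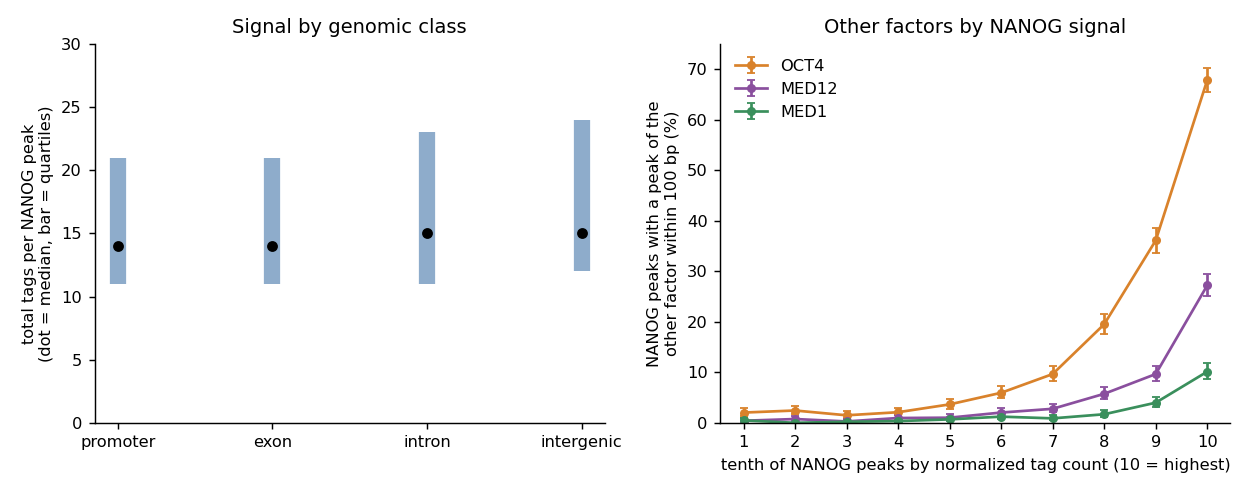
Left, Total Tags per NANOG peak by genomic class (dot, median; bar, quartiles). Right, share (%) of NANOG peaks with an OCT4, MED12 or MED1 peak within 100 bp in each decile of NANOG Normalized Tag Count, with 95% Wilson intervals. Medians are 14 or 15 tags in all 4 classes, while the share with OCT4 climbs from 2.02% to 67.9%.

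Chromosomes differed most for X. Over the genome there were 5.80 peaks per sequenced Mb, with 6.02 on the autosomes and 2.47 on X, and no peak was listed on Y. Autosomes ranged from 4.84 on chromosome 7 to 7.13 on chromosome 14. Input tags above the floor were found at 0.499% of the peaks on X, at 12.2% of those on chromosome 14 and at 8.95% of those on chromosome 15, the next highest. The high value of chromosome 14 came from 70 to 110 Mb, a stretch chosen with earlier results of these data known. It held 406 peaks, 10.2 per Mb, against 5.65 on the rest of the chromosome and 5.73 on all other sequence. Input tags were above the floor at 19.5% of its peaks (interval 15.9 to 23.6) and at 5.75% elsewhere (5.38 to 6.14), and its share of peaks at least 8 times the input was 27.8% against 38.9%. The 3 other A6 lists were denser there too, with 1.85 OCT4, 2.48 MED1 and 1.60 MED12 peaks per Mb against 0.977, 0.264 and 0.400 elsewhere. Input tags were above the floor at 24.3% of the OCT4 and 25% of the MED12 peaks inside, against 9.19% and 18.3% elsewhere, but at 14.1% of the MED1 peaks inside against 23.4% elsewhere. The part of the input in these densities was not tested. With only the NANOG peaks at least 8 times the input, the order of the chromosomes changed, with chromosome 10 highest at 2.99 per Mb, 2.23 on chromosome 14 and 0.938 on X, and the stretch held 2.83 per Mb against 2.23 elsewhere.

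**Figure D3:**
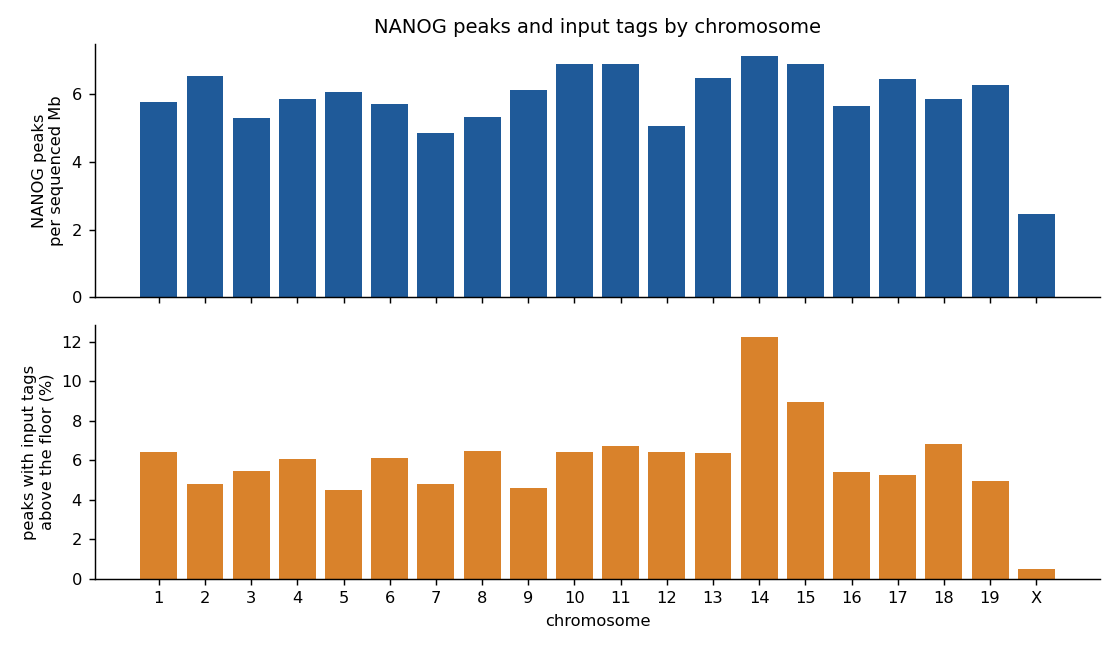
Top, NANOG peaks per sequenced Mb on each chromosome. Bottom, share (%) of the NANOG peaks of each chromosome with input tags above the floor of 2.2. X is lowest in both panels, with 2.47 peaks per Mb and 0.499%, and chromosome 14 highest in both, with 7.13 and 12.2%.

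Peaks were unevenly spread along chromosomes. In 2541 bins of 1 Mb the median was 5 peaks, 142 bins (5.59%) held none and 18 held 20 or more. The variance of the counts was 2.99 times their mean. The fullest bins, chosen here after their counts were seen, held 28 peaks from 38000001 to 39000000 of chromosome 18, where Spry4 lies, and 27 from 98000001 to 99000000 of chromosome 13. Gene-rich bins held slightly more peaks, with medians of 3, 5 and 6 for bins with no TSS, 1 to 19 and 20 or more.

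NANOG peaks often lay in groups. The nearest other NANOG peak was at a median of 27163 bp, with quartiles of 6102 and 86597.5 bp. A neighbour lay within 1000 bp of 1232 peaks (8.32%) and within 12500 bp of 5237 (35.3%, interval 34.6 to 36.1). The closest pair was 326 bp apart, near 2 peak widths of 166 bp. Neighbours also resembled each other slightly in signal: adjacent peaks in a cluster had a Spearman correlation of 0.14 in Normalized Tag Count (3019 pairs), against 0.01 for adjacent peaks farther apart (11776 pairs). These pairs share a library and are given as a description. Sparser lists had longer gaps, and a neighbour within 12500 bp was found for 12.3% of OCT4, 22.3% of MED1 and 20.4% of MED12 peaks.

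Chaining neighbours within 12500 bp, a distance often used to join enhancers, gave 2218 clusters of at least 2 peaks, 565 of at least 3 and 56 of at least 5, and left 9578 peaks single. The number of clusters of at least 5 depended on the settings, at 3 with chaining within 5 kb, 157 within 25 kb and 10 with only peaks at least 8 times the input. The highest number of peaks in a cluster was 9, reached at Epha4, and the longest cluster, named after its span was seen, covered 54.918 kb at Rnf220. Clustered peaks were only slightly stronger, with median Total Tags of 15, 16, 16 and 18 in clusters of 1, 2, 3 to 4 and 5 to 9 peaks. Mediator differed more. MED12 lay at 3.16% of single peaks (interval 2.83 to 3.53), at 7.53% and 9.01% of those in clusters of 2 and of 3 to 4, and at 17.1% (13.4 to 21.6) of those in clusters of 5 to 9. MED1 went from 0.898% to 8.72% over the same sizes. OCT4 varied less, at 14.2% of single peaks (13.5 to 14.9), 16.8% in clusters of 2 (15.6 to 18.1), 16.3% in those of 3 to 4 and 17.8% in those of 5 to 9. The promoter share did not follow cluster size, at 3.03%, 2.57%, 3.11% and 2.49%.

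**Figure D4:**
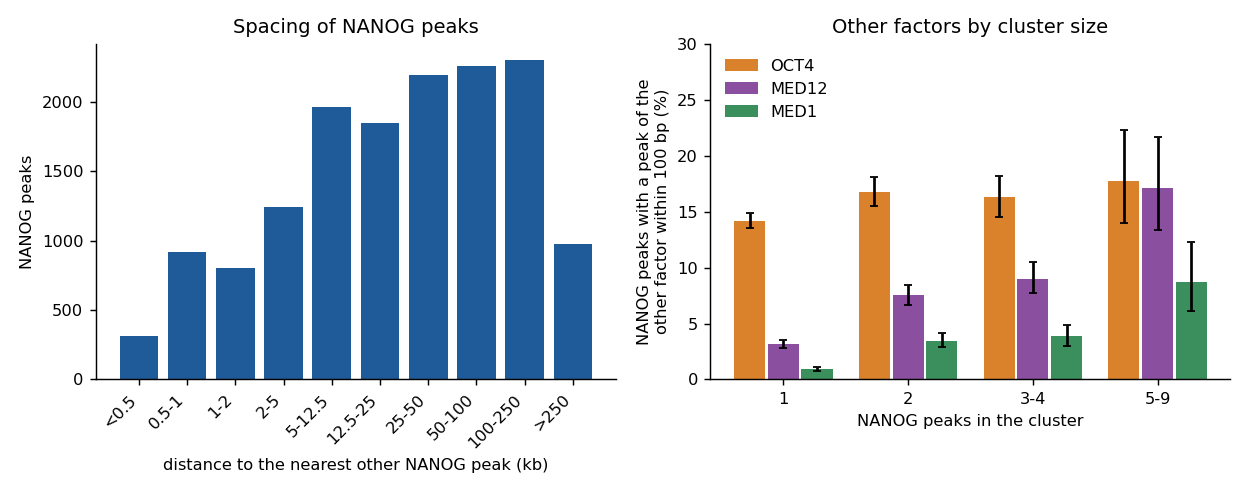
Left, NANOG peaks by distance (kb) to the nearest other NANOG peak. Right, share (%) of NANOG peaks with an OCT4, MED12 or MED1 peak within 100 bp, by the number of NANOG peaks in the cluster, with 95% Wilson intervals. The share with MED12 goes from 3.16% to 17.1% and that with OCT4 from 14.2% to 17.8%.

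The cluster with the largest summed Normalized Tag Count, 92.2, lay on the far side of Sox2. It spanned chr3:34626653-34666088, and its 7 peaks lay 77678 to 116947 bp downstream of the Sox2 start. Their Normalized Tag Counts were 3.1, 10.1, 25.6, 17, 20.9, 10.1 and 5.4 in order along the chromosome, so the signal was highest in the middle. MED12 peaks lay at 4 of the 7, and an OCT4 peak at 1. The Myst4 cluster had 3 peaks that summed to 90.6, most of it from the peak shown above. A cluster of 6 intronic peaks in Etv5, an ETS factor gene of the FGF pathway, summed to 86.8. The 6 peaks upstream of Klf9 and the 9 peaks near Epha4, an ephrin receptor gene, summed to 86.7 each, with 46.5 as the highest single value at Klf9 and 18.6 at Epha4. The cluster downstream of Klf4, a gene for a reprogramming factor, had 3 peaks that summed to 79.8, with values of 20.9, 36.4 and 22.5. All 3 Klf4 peaks had OCT4, MED1 and MED12, the only one of the 8 clusters with the largest sums for which this held. The remaining clusters lay around Ooep and Dppa5a, expressed in eggs and early embryos, with 73.5, and around Sept1, with 72.8.

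Elements read by OCT4 and SOX2 were more frequent at peak centres than in nearby sequence. The octamer-SOX composite was in 5.49% of 200 bp windows around peak centres (interval 5.14 to 5.87) and in 0.544% of 29212 windows 10 kb to either side, a ratio of 10.1. The octamer was in 6.95% against 1.41% and the SOX box CATTGTT in 8.50% against 3.62%. At least 1 of these 3 was in 19.6% of windows and 5.40% of flanks. The octamer and the composite can overlap by letters, and 47 windows held both. The ESRRB element was in 2.46% against 0.527%, the KLF element in 1.07% against 0.305%, the STAT element TTCCNGGAA in 1.33% against 0.469% and the ZIC element in 13.8% against 4.59%. The homeodomain core CCATTA, the family to which NANOG belongs, was in 11.7% against 8.23%, and the TEAD element GGAATGT in 4.54% against 2.62%. The GATA element AGATAAG was equally frequent in both, at 2.72% and 2.77%, and the E-box CACGTG was less frequent at peaks, at 1.26% against 2.09%. At all 45971 protein-coding TSS windows of 200 bp, the composite was in 0.313% and the E-box in 5.19%. The remaining 4 patterns were rare at peaks and in flanks. The GC box GGGGCGGGG was in 0.391% against 0.445%, the ETS element CCGGAAGT in 0.425% against 0.195%, the NRF1 element GCGCATGCG in 0.0472% against 0.0377% and the CTCF core AGGGGGCGC in 0.0405% against 0.0650%. No pattern was found in 7639 windows (51.6%).

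Patterns differed in where they lay and in which peaks held them. Composite matches within 50 bp of the centre were 10.4 times as frequent per base as those 300 to 500 bp away, against 6.08 for the octamer, 3.53 for ZIC and 0.922 for GATA. From the lowest to the highest decile of NANOG signal, the composite went from 3.24% to 8.64% of windows, with its highest share, 9.65%, in decile 9. The octamer went from 5.26% to 9.12%. ESRRB was at 2.09% in both end deciles and reached 3.10% in decile 7. NANOG peaks with OCT4 held the composite in 12.6% of windows, against 4.28% of those with none of the 3 other factors. ESRRB was in 6.21% of windows with MED1, against 2.46% with none of the 3. The composite went from 5.82% at single peaks to 2.80% in clusters of 5 to 9, and ESRRB went from 2.31% to 3.74%, the latter values from 321 peaks. In promoters the composite was in 3.00% of windows and between genes in 6.33%.

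**Figure D5:**
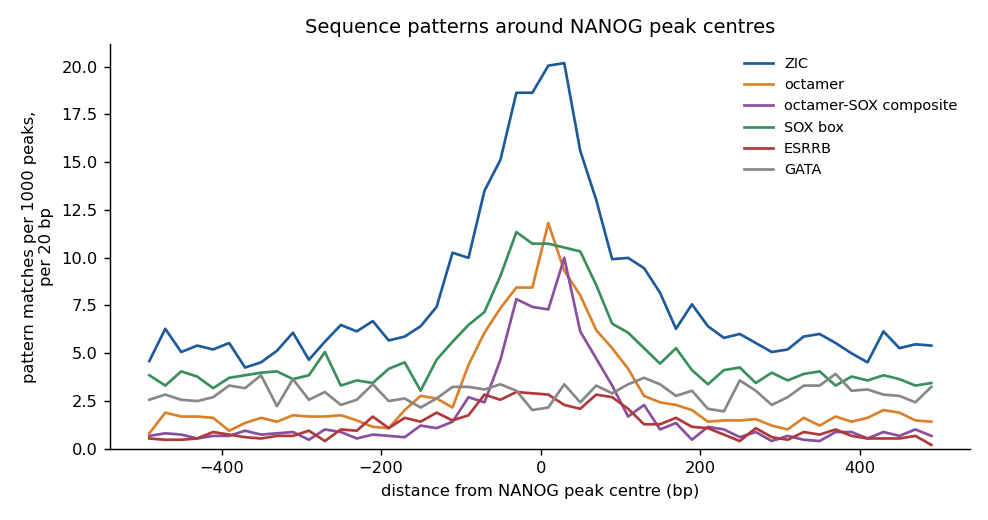
Exact pattern matches per 1000 NANOG peaks in steps of 20 bp by distance (bp) from the peak centre, both strands. ZIC, octamer, octamer-SOX composite, SOX box and ESRRB matches are densest at the centre, while GATA matches are level, at 0.922 times their rate 300 to 500 bp away.

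Base composition hardly set peaks apart. GC content of the 200 bp windows was 42.5% ± 6.50 (SD over 14815 peaks) and 42.9% ± 7.87 in the flanks. Promoter peaks had 44.1% GC, far from the 59.0% of all TSS windows, and a ratio of observed to expected CpG of 0.356 against 0.683. The TSS windows are centred on the TSS itself and the peak windows on peaks up to 1000 bp away, so the 2 sets differ in position.

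NANOG peaks were spread over many genes. Of 22202 protein-coding genes, 6788 (30.6%) were the nearest gene of at least 1 peak, 3612 of exactly 1, 627 of at least 5 and 99 of at least 10, and 6 genes had at least 10 peaks when only those at least 8 times the input were counted. A promoter peak was found at 440 genes (1.98%). A gene with far neighbours is nearest to more sequence, and the number of peaks followed the length of that stretch across genes (Spearman 0.50, 22202 genes that share 1 library). The median stretch was 46.6 kb over all genes and 1207 kb over the 99 genes with at least 10 peaks.

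The gene nearest to most peaks was Pcdh17, which encodes a protocadherin, with 32 peaks over a stretch of 3546 kb. Tbl1xr1 and Tle4, both genes of transcriptional corepressors, followed with 24 and 23 peaks. Gm10110, Olfm4 and Klf12, the last a Krüppel-like repressor gene, had 22 each, Etl4 had 21 and Diap3, a formin gene, had 20. Cdh2, which encodes N-cadherin, and Cntn5, a contactin gene, had 19, and Jarid2, Klf6 and Pde4d had 18. Pcdh9 and Sox2 had 17. Together these 15 genes were nearest to 312 peaks (2.11%). The placement varied: all 21 Etl4 peaks were intronic, all 17 Sox2 peaks were intergenic, and Jarid2 had 12 intergenic, 5 intronic and 1 promoter peak. Per 100 kb of stretch, Jarid2 had 2.71 peaks, Tle4 2.14, Sox2 2.03 and Pcdh17 0.902, against 0.561 over all genes.

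On this ranking the chromosome 14 stretch weighed heavily, since 6 of the 15 genes, Pcdh17, Gm10110, Olfm4, Klf12, Diap3 and Pcdh9, lie on that chromosome. Without its peaks from 70 to 110 Mb, 9 of the 15 remained and Robo1, Epha4, Lphn3, Enc1, Cox7c and Magi2 entered with 17 peaks each. Only 4 of the 15 remained when every peak within 100 kb of a TSS was counted, and Etl4 then led with 19, followed by Pde4d with 18. That count takes peaks near any TSS of a gene, so long genes with several TSSs, such as Etl4 and Pde4d, cover more sequence in it. Pcdh17 had 2 peaks within 100 kb and Pcdh9 had 0. With only peaks at least 8 times the input, 9 of the 15 remained. Etl4 then led with 12, Cdh2 and Tle4 followed with 11 each, and Pcdh17 had 8. Among genes with at least 5 peaks, chosen here after the values were seen, the densest was Mcl1, an anti-apoptotic BCL2 family gene, with 6 peaks in 31.4 kb, or 19.1 per 100 kb. Spry4, an inhibitor of FGF signalling, had 8 peaks and 8.76 per 100 kb.

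Gene lists were described by their counts beside those of all genes. All 30 factors of the core and naive list were nearest to at least 1 peak (interval 88.6 to 100%), against 30.6% of all genes. They had a median of 3 peaks, 2.40 peaks per 100 kb of stretch and a promoter peak at 30% of them. Over all genes these values were 0, 0.561 and 1.98%. Within 100 kb of a TSS, 100% of the list and 63.8% of all genes had a peak. In this list, Jarid2 with 18, Sox2 with 17, Klf5 with 15 and Zfp281 with 11 were among those with the most. Klf5 lies in the stretch of chromosome 14 from 70 to 110 Mb, where peaks were denser and input tags more often above the floor. The list's genes had a median stretch of 119 kb, longer than the 46.6 kb of all genes. With peaks at least 8 times the input only, 26 of the 30 kept one, against 16.4% of all genes. Pou5f1 had 3 peaks, with Normalized Tag Counts of 3.9, 19.4 and 13.2 at 15478, 1971 and 922 bp upstream of its start. Klf4 had a peak of 7.7 closer to its start, at 11920 bp downstream, besides its cluster. Esrrb had 7 peaks, all in its own introns, at 12.4, 5.4, 9.3, 3.1, 8.5, 25.6 and 12.4, and none had OCT4. Zfp42 had 4, at 4.6, 36.4, 3.9 and 10.8. The peaks nearest to the Nanog gene had values of 6.2 with 11 tags and 5.4 with 20 tags, at 13373 and 4808 bp upstream, and neither had OCT4 or Mediator. Within 100 kb of the Nanog start there were 8 peaks, and 1 of them, 1720 bp upstream of Dppa3, had a value of 15.5 with 42 tags and OCT4.

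Signalling genes had peaks to different degrees, and their counts stand beside 30.6% of all genes with a peak. Their stretches were longer than the 46.6 kb of all genes, with medians of 121 kb in the FGF-ERK, 98.4 kb in the LIF-STAT3, 119 kb in the Nodal-BMP and 166 kb in the Wnt list. Within 100 kb of a TSS, a peak was found for 100%, 80%, 87.5% and 83.3% of these lists, against 63.8% of all genes. The intervals of the LIF-STAT3 (49.0 to 94.3) and Wnt (55.2 to 95.3) lists include that 63.8%. The Nodal-BMP interval (64.0 to 96.5) begins just above it. In the FGF-ERK pathway, 11 of 12 genes had a peak, with Grb2 the exception, and the density was 2.59 per 100 kb. The inhibitor genes Spry2 (10 peaks) and Spry4 (8), the ETS factor gene Etv5 (8) and the receptor gene Fgfr1 (6) had the most. The receptor gene Fgfr2 and the inhibitor gene Spred1 followed with 4 each. Spry2 lies in the stretch of chromosome 14 from 70 to 110 Mb, where peaks were denser and input tags more often above the floor. The ligand gene Fgf4, named here after its values were seen, had 3, of which the strongest, 13.9, lay 2977 bp downstream of its start. In the LIF-STAT3 pathway, 7 of 10 had a peak, at 1.74 per 100 kb. The receptor genes Lifr and Il6st had 4 and 3, with highest values of 35.6 and 24, while Jak1, Stat3 and Ptpn11 were nearest to none. Within 100 kb of a TSS, Stat3 had 3 peaks, and Jak1 and Ptpn11 had 0. In the Nodal-BMP pathway, 14 of 16 had a peak but the density was 0.748 per 100 kb. The inhibitor Smad7 had 8, and Id3, a BMP target named here after its value was seen, had 1 with a value of 38.7. The receptor genes Acvr2b and Bmpr1a were nearest to none, with 0 and 1 peaks within 100 kb of a TSS. In the Wnt pathway, 7 of 12 had a peak, at 1.05 per 100 kb, with 8 each at the receptor gene Fzd7 and the TCF factor gene Tcf7l2. Ctnnb1, Axin1, Apc, Tcf7 and Lrp5 were nearest to none. Within 100 kb of a TSS they had 0, 2, 0, 3 and 1 peaks, in the same order.

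Of 18 Polycomb and chromatin genes, with a median stretch of 73.2 kb, 13 had a peak (72.2%, against 30.6% of all genes). Their density was 2.19 per 100 kb, against 0.561 over all genes, and includes the 18 peaks of Jarid2. Within 100 kb of a TSS, 83.3% of them had a peak, with an interval (60.8 to 94.2) that includes the 63.8% of all genes. Tet2, an enzyme that oxidises methylated cytosine, had 10, the Polycomb genes Mtf2 and Eed had 5 and 4, and all 4 peaks of Eed had OCT4. Ring1, Dnmt1, Chd4, Mbd3 and Smarca4 were nearest to none, with 0, 1, 2, 0 and 0 peaks within 100 kb of a TSS. Of 23 lineage factors found in the annotation, 12 had a peak (52.2%, against 30.6% of all genes), at 0.765 per 100 kb, and their median stretch was 97.5 kb. Within 100 kb of a TSS, 56.5% of these lineage factors had a peak, with an interval (36.8 to 74.4) that includes the 63.8% of all genes. Otx2, a factor of the epiblast and brain, had 9 without OCT4 or Mediator at any of them, and Eomes and Pax3 had 4 each. Gata4, Cdx2, Gsc and 8 others were nearest to none. Of these, Gsc and Neurog2 had 2 peaks each and Myf5 had 1 within 100 kb of a TSS. Housekeeping genes had a peak in 5 of 20 cases (25%, 11.2 to 46.9) at 0.868 per 100 kb, with a highest value of 7, and genes of adult tissues in 4 of 24 (16.7%, 6.68 to 35.9) at 0.346 per 100 kb. With peaks counted within 100 kb of a TSS the housekeeping and adult lists reached 65% and 70.8%, close to the 63.8% of all genes.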

How the data were processed

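NANOG ChIP-seq was performed by the authors in 1 library of clone A6. Per the labels and the study's methods, the authors mapped reads to mm9 with BWA, removed duplicated reads and found peaks with HOMER against the input. Versions are not given in the sources used here. The deposited lists hold, per peak, a Normalized Tag Count (signal), Total Tags (counts), a findPeaks Score, a focus ratio (a fraction of tags), input tags scaled to the ChIP library (signal) and the ratio to input and to local background (fold). All 8 deposited lists were read, and no tag was recounted. Steps of 0.774 in the Normalized Tag Count correspond to a library of about 12.9 M NANOG tags, an estimate that sets the depth, and 10 tags was the lowest count of a listed peak.

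Peak centres were placed on the GENCODE annotation of the NCBIM37 assembly, which has the sequence of mm9, with precedence promoter, exon, intron, intergenic, using protein-coding transcripts and genes of one name merged. Each peak was given to the nearest TSS, as in the study. Peaks of other factors were counted as shared when centres lay within 100 bp. Motif patterns were searched on both strands in 200 bp windows, and flanking windows were dropped within 500 bp of a NANOG peak. Python 3.11.15, numpy 2.4.6, pandas 2.3.3, scipy 1.17.1 and matplotlib 3.10.9 were used, and the functions were tested on simulated data. Named genes are the 15 with the most peaks, the 10 strongest peaks and 5 strongest promoter peaks, the 8 clusters with the largest summed signal, and list genes, at most the 5 with the most peaks of each list and those without one. Others are marked where named. The peaks, gene lists and patterns were chosen with earlier results of these data known. With 1 NANOG library, nothing was tested between conditions. Results for a withheld item are not reported here.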

Additional observations from a re-analysis of the deposited data

How the results depend on the processing

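No paired analysis was possible because only 1 NANOG library was analysed. With only the peaks at least 8 times the input, the promoter share was 2.47% and the intergenic share 60.3%, 21.9% of peaks had a neighbour within 12500 bp, 565 clusters had at least 2 peaks, 6 genes had at least 10 peaks, 86.7% of the pluripotency list and 16.4% of all genes had a peak, and the composite element was in 7.84% of windows. With every list cut in this way, OCT4, MED1 and MED12 lay at 5.50%, 0.525% and 2.00% of NANOG peaks. The cut left 328 OCT4, 52 MED1 and 139 MED12 peaks, from 2532, 762 and 1071. These shares therefore cannot be compared with those of the full lists. With the full lists and centres within 1000 bp, the shares were 17.4%, 3.43% and 6.97%. With all annotated genes the promoter share was 4.39%, the intergenic share 54.8% and the share within 100 kb of a TSS 85.3%. With promoters of 2.5 kb to either side, the promoter share was 8.38%, the intergenic share 56.4% and the log2 difference in signal between them 0, and that difference was -0.093 for the score. Neighbours within 5 and 25 kb were found for 22.1% and 47.8% of peaks. With every peak within 100 kb of a TSS, 57 genes had at least 10 peaks and 63.8% of all genes had one. In windows of 100 bp the composite was in 3.63%. The other 13 of 39 values, with clusters counted from 2 peaks, stayed within the limit set for their kind, and none of the 39 reversed. The limit was the interval for shares and 1.5 times for counts. Signal differences had a fixed log2 limit, which Total Tags barely met, at -0.0995 against -0.199 for the Normalized Tag Count. For GC content it was 1 SD over peaks (6.50), a wide limit. The GC difference from the flanks was -0.357 in windows of 200 bp and -0.880 in those of 100 bp. Leaving out chromosome 14 from 70 to 110 Mb, chosen after seeing the data, kept the 6 counts and shares it was applied to within these limits, but 9 of the 15 genes with the most peaks remained. The estimated depth of 12.9 M tags and the floor of 10 tags limit what can be seen of weak sites.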
